A study of Mus musculus with 6 samples.

Results

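The genes examined here encode the constant core of the T cell receptor machinery. They are the receptor-associated signalling chains Cd3d, Cd3e, Cd3g and Cd247, the coreceptors Cd4 and Cd8a, the proximal kinases Lck and Zap70, and the adaptor Lat. These 9 members were taken by gene symbol from the 24223 genes counted in every RNA-Seq library. All 9 passed the filter on low counts, which left 13607 genes to test.

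The T cell receptor recognizes peptide held by MHC molecules through its alpha and beta chains, which have no signalling tail of their own. The CD3 delta, epsilon and gamma chains and the CD247 (zeta) chain carry tyrosine motifs in their tails, which the kinase LCK phosphorylates once a coreceptor brings it to the engaged receptor. ZAP-70 then docks on these phosphorylated motifs and in turn phosphorylates LAT, a membrane scaffold on which the downstream enzymes gather. Helper T cells carry CD4 as their coreceptor, and cytotoxic T cells carry CD8. The genes of the variable receptor chains themselves were not analysed here.

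RNA-Seq compared non-activated Naive CD4+ T cells with Th17 and Th1 cells that were made from such cells in culture. Naive cells were CD4+CD44- cells isolated with a CD4+CD62L+ kit from pooled lymph nodes and spleens of C57BL/6 mice 1 to 2 months old. Th17 and Th1 cells were both activated through CD3 and CD28 and collected on the fifth day, Th17 with anti-IL-4, anti-IFN-γ, TGF-β, IL-6, IL-1β and IL-23, and Th1 with anti-IL-4, IL-12 and IL-2. Each of the 3 cell types had 2 libraries, which the study describes as independent biological replicates. No activated cells without polarization were among the libraries, so activation, time in culture and the cytokines cannot be told apart in a comparison with Naive.

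The libraries differed in depth by replicate number. Total counts were between 59973041 and 69080017 in the 3 first replicates and between 17742158 and 18608805 in the 3 second replicates, so 3 counts, the limit of detection used here, stood for 0.044 to 0.0464 CPM (counts per 1000000 of the scaled library total) in the first and 0.149 to 0.19 CPM in the second. All CPM values of single genes below are scaled by the trimmed mean of M values (TMM), unless the sentence says otherwise. The cytokine gene Il17f was at 769 and 1090.1 CPM in Th17 and at no more than 0.48 CPM in the other libraries, and the Th1 factor Tbx21 was at 138 and 158 CPM in Th1 and at no more than 23.3 CPM elsewhere. The Th1 cytokine gene Ifng was less restricted, at 177 and 157 CPM in Th1, 64.6 and 48.7 CPM in Th17, and 4.55 and 4.56 CPM in Naive. Ccr7, which marks naive and central memory cells, was not highest in Naive, at 296 and 396 CPM there, 323 and 370.4 CPM in Th17, and 346 and 523 CPM in Th1.

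The promoters of Cd3d, Cd3g and Cd3e are shown because these genes share a locus, and that of Zap70 because it had the largest difference between Th1 and Th17 among the well expressed members. Cd3d (chr9:44981786-44987339, plus strand) and Cd3g (chr9:44969572-44980431, minus strand) are divergent neighbours in GRCm38, with start sites 1355 bases apart, and Cd3e (chr9:44998740-45009627, minus strand) starts 27841 bases from Cd3d. Each sequence holds 260 bases, read 5′ to 3′ on the strand of its gene, from 250 bases before the start site to the first 10 transcribed bases, from RefSeq on GRCm38.p6. They lie at chr9:44981536-44981795 for Cd3d, chr9:44980422-44980681 for Cd3g, chr9:45009602-45009861 for Cd3e, and chr1:36761548-36761807 for Zap70. Capitals mark matches to AGGAAG, a core that ETS family factors can bind, or to its reverse complement.
Cd3d: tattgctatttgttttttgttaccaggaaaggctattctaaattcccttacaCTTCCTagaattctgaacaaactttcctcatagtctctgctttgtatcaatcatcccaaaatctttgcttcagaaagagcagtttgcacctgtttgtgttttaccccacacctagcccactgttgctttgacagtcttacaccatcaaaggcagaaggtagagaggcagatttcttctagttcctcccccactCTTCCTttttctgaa
Cd3g: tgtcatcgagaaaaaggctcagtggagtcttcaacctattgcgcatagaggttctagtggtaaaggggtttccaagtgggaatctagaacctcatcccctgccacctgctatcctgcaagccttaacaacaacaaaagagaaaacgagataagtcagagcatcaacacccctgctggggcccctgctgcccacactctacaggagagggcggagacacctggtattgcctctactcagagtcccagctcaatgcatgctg
Cd3e: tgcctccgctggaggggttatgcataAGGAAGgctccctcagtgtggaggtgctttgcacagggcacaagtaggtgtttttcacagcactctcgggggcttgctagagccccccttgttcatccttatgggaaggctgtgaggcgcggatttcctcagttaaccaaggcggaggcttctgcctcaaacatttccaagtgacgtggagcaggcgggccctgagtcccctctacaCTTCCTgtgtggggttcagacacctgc
Zap70: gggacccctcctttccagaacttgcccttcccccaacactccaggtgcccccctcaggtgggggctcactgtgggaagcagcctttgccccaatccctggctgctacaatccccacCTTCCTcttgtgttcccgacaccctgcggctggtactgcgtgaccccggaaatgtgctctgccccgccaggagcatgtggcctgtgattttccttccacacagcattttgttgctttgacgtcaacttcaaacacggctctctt

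RefSeq windows of 250 bases before and 50 after a start site were at hand for 8 of the 9 members, with 11 start sites in all, since Lck had 2 windows 15269 bases apart and Zap70 had 3. AGGAAG was found on either strand in 8 of the 11 windows, belonging to 6 of the 8 members, and in 35.4% of 32851 such windows of all genes. Cd3g and Cd8a held no match. CANNTG, the letters of an E-box, was found in 11 of 11 windows and in 72.3% of all windows, and TATAAA in 0 of 11 and in 13.6% of all. The motifs were chosen after the sequences had been seen, overlaps between motifs were kept, and a match says only that these letters are there. The GC content of the members' windows was between 42.3% (Cd3d) and 65.7% (Lat), around a median of 52.7% over all windows.

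Levels of different genes were compared as CPM per kilobase of the joined exons of RefSeq-linked transcripts. Lengths over all annotated exons were farthest from these for Cd3g (3269 against 1023 bases), Cd3e (4080 against 1462) and Lat (2767 against 1235). The order between genes therefore depends on the exons taken, and those behind the deposited counts are not known. The values below use the RefSeq exons. In Naive, the order was Lat (566 ± 65.3 CPM per kilobase, SD, n = 2), Cd3g (410.1 ± 37.6), Lck (321 ± 68.8), Cd3d (289 ± 20.3), Cd4 (201 ± 52.7), Cd3e (191 ± 51.6), Zap70 (156 ± 30.4), Cd247 (61.7 ± 11.5) and Cd8a (0.0589 ± 0.0162). The libraries of Lck and Cd3d overlapped, as did those of Cd4 and Cd3e and those of Cd3e and Zap70, so these neighbours were not separated by their spread. In Th17, Cd3d came first at 572 ± 214 CPM per kilobase, but its 2 libraries (420 and 723) enclosed both those of Lat (496 and 442) and overlapped those of Cd3g (378 and 538). Cd247 was the lowest of the 8 well expressed members per kilobase in every cell type, at 43.9 ± 2.84 in Th17 and 66.3 ± 16.4 in Th1. In Th1, Cd3g (526 ± 119), Cd3d (436 ± 126) and Lat (431 ± 31.5) overlapped, and Zap70 (210.3 ± 44.4), Cd3e (202 ± 37.5) and Cd4 (166 ± 42.4) each overlapped their neighbour in that order. Zap70 stood below Cd3e in Th17, at 99 ± 9.39 against 136 ± 7.64 CPM per kilobase, and there the libraries did not overlap.

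**Figure D1:**
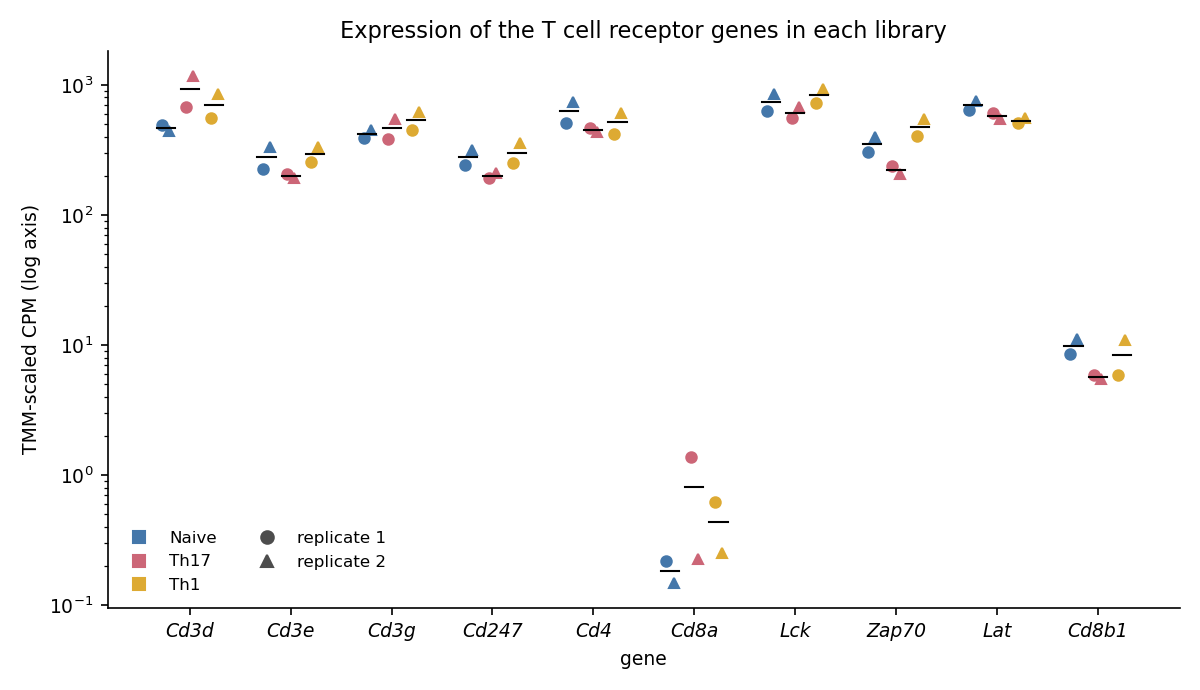
TMM-scaled CPM on a log axis for the 9 members and for Cd8b1, the CD8 beta chain, in each library, coloured by cell type, with circles for replicate 1, triangles for replicate 2 and a bar at the mean of 2. The 8 members other than Cd8a sit between 191 and 1169 CPM, and Cd8a sits between 0.149 and 1.38 CPM.

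Between cell types, none of the 9 members passed the test in any of the 3 comparisons. A gene was called at an adjusted p-value under 0.01 in edgeR's quasi-likelihood test, with Benjamini-Hochberg adjustment over 13607 genes, and a log2 fold change above 1 or below -1. Of all genes tested, 5.43% were called in Th17 against Naive, 7.45% in Th1 against Naive and 5.53% in Th1 against Th17. At an unadjusted p-value under 0.05, 3, 0 and 1 members passed in these comparisons, which is 33.3%, 0% and 11.1% of 9, where 33.3%, 29.9% and 33.8% of all genes did. The 3 in Th17 against Naive include Cd8a, which passed the low-count filter only through Th17 replicate 1 and Th1 replicate 1. These are the libraries where it was highest, so its place among the 3 is no separate support. DESeq2 called 0, 0 and 1 members, the last being Zap70, where it called 12.4%, 13.8% and 13.4% of the genes it tested. The median size of the members' log2 fold changes was 0.49, 0.36 and 0.44, and that of all genes tested was 0.59, 0.5 and 0.6. With 2 libraries a group, the exact two-sided permutation test of a single value could not give a p-value below 0.33, so the tests below are those of the fit across all genes.

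**Figure D2:**
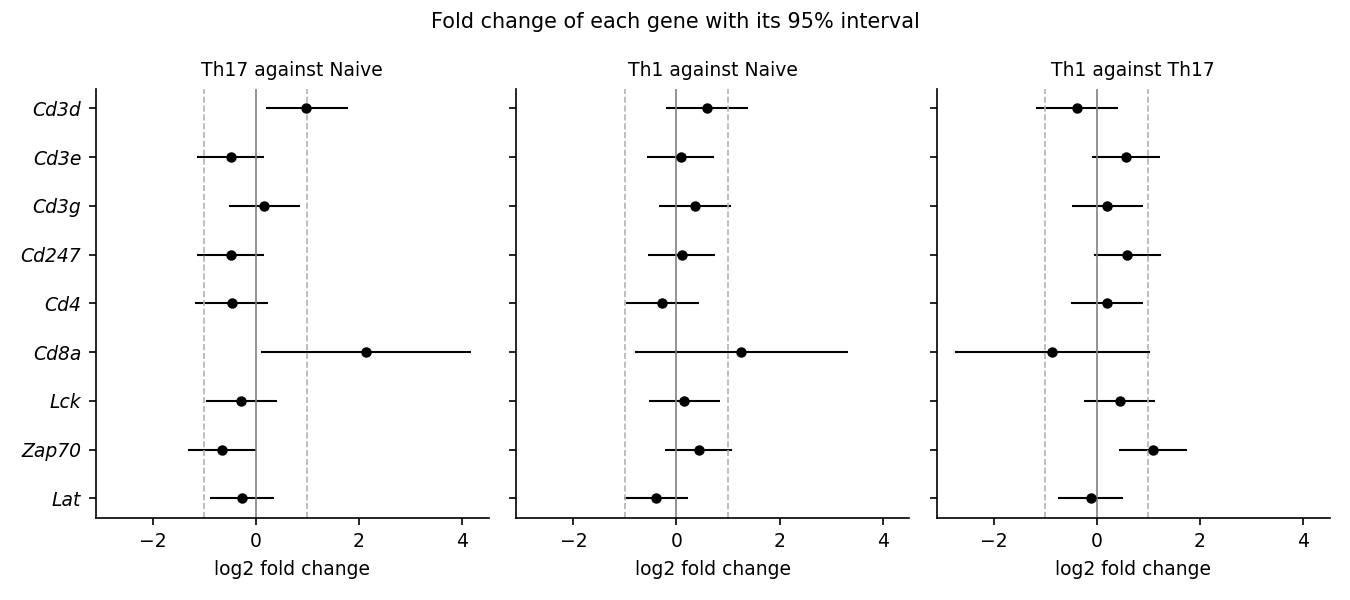
Log2 fold change of each member (point) with its 95% interval (line) in the 3 comparisons, from edgeR, with dashed lines at -1 and 1. The interval lay wholly above 0 for Cd3d and Cd8a in Th17 against Naive and for Zap70 in Th1 against Th17, and ended at 0 for Zap70 in Th17 against Naive.

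Cd3d (ENSMUSG00000032094.8) encodes the CD3 delta chain, which pairs with CD3 epsilon. It was at 490.3 and 444 CPM in Naive, 679 and 1169 CPM in Th17, and 560.1 and 849 CPM in Th1. Both Th17 and both Th1 libraries were above both Naive libraries, and Th17 and Th1 overlapped. The log2 fold change was 0.98 (SE 0.36, 95% interval 0.19 to 1.78, edgeR adjusted p-value 0.086) for Th17 against Naive and 0.59 (SE 0.35, 95% interval -0.2 to 1.38, edgeR adjusted p-value 0.3) for Th1 against Naive. Th17 replicate 2 alone was far above the rest, and without it the Th17 against Naive log2 fold change was 0.54 with an adjusted p-value of 0.58. Between Th1 and Th17 it was -0.39 (95% interval -1.18 to 0.4), and its sign turned without that library (0.06).

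Cd3g (ENSMUSG00000002033.14) encodes CD3 gamma, the other partner of CD3 epsilon. Its levels were 392 and 447 CPM in Naive, 387 and 550.4 CPM in Th17, and 453 and 624 CPM in Th1. Th1 lay above Naive, while Th17 overlapped both other cell types. The log2 fold changes were 0.16 (95% interval -0.53 to 0.85) for Th17 against Naive, 0.36 (95% interval -0.33 to 1.05) for Th1 against Naive and 0.2 (95% interval -0.49 to 0.89) for Th1 against Th17. Th17 replicate 2 was again the higher Th17 library, by a ratio of 1.42 for Cd3g and of 1.72 for Cd3d.

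Cd3e (ENSMUSG00000032093.7) encodes CD3 epsilon, which pairs with both the delta and the gamma chain. It was at 226 and 333 CPM in Naive, 206 and 191 CPM in Th17, and 256 and 334 CPM in Th1. Both Th17 libraries were the lowest of the 6, and Naive and Th1 overlapped. The log2 fold change of Th17 against Naive was -0.49 (SE 0.3, 95% interval -1.15 to 0.16, edgeR adjusted p-value 0.26), and that of Th1 against Th17 was 0.57 (SE 0.3, 95% interval -0.09 to 1.23, edgeR adjusted p-value 0.2). For Th1 against Naive it was 0.08 (95% interval -0.58 to 0.73).

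Cd247 (ENSMUSG00000005763.15, chr1:165788681-165877277, plus strand) encodes the zeta chain, the part of the complex with the most tyrosine motifs. It was at 244 and 318 CPM in Naive, 191 and 209 CPM in Th17, and 249 and 355 CPM in Th1. As for Cd3e, Th17 held the lowest libraries, with no overlap with Naive or Th1, and Naive overlapped Th1. The log2 fold changes were -0.49 (95% interval -1.14 to 0.16), 0.1 (95% interval -0.55 to 0.75) and 0.59 (95% interval -0.06 to 1.25) for Th17 against Naive, Th1 against Naive and Th1 against Th17. The annotated gene overlaps Pou2f1 on the opposite strand, and whether the counting used strand is not settled by the sources used here.

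Within a library, the ratio of these chains to each other does not depend on how the library is scaled. The counts of Cd247 per count of Cd3e were between 0.925 and 1.1 in all 6 libraries. Those of Cd3d per count of Cd3e were 2.16 and 1.33 in the Naive libraries, 3.29 and 6.13 in the Th17 libraries, and 2.18 and 2.54 in the Th1 libraries. Both Th17 libraries had the highest Cd3d to Cd3e ratios, and Naive and Th1 were separated by a gap of only 2.16 to 2.18. Cd3g per count of Cd3e was 1.73 and 1.34 in the Naive libraries, 1.88 and 2.89 in the Th17 libraries, and 1.77 and 1.87 in the Th1 libraries. Cd3d made up 36.2% and 28.8% of the counts of the 4 chains in the Naive libraries, 46.4% and 55.2% in the Th17 libraries, and 36.9% and 39.3% in the Th1 libraries. These ratios are descriptions of 2 libraries a group, with no test.

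**Figure D3:**
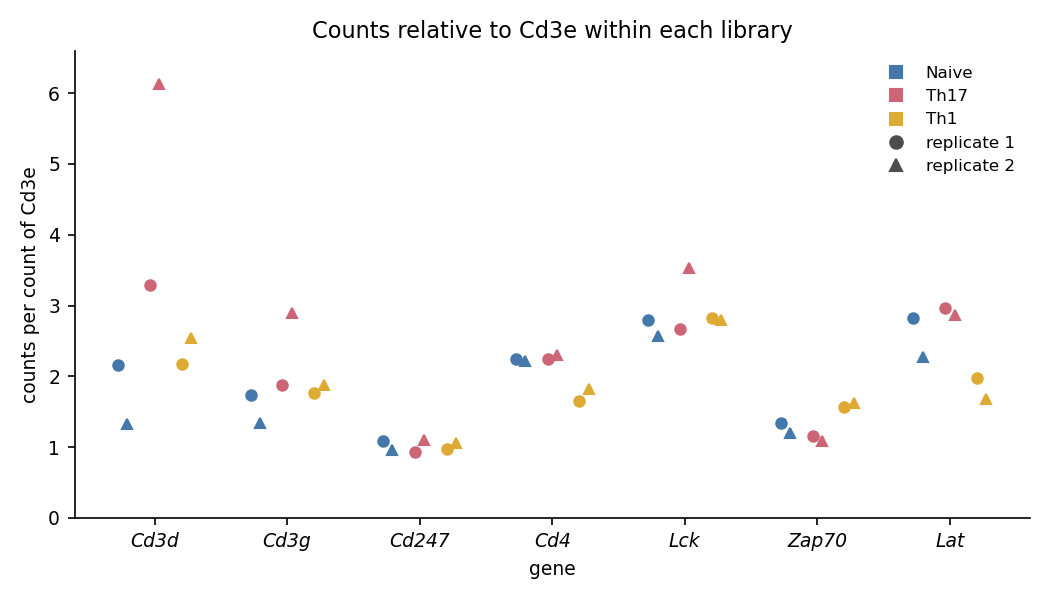
Counts of 7 members divided by the counts of Cd3e in the same library (vertical axis, linear), coloured by cell type, with circles for replicate 1 and triangles for replicate 2. Cd3d spreads from 1.33 to 6.13 while Cd247 stays between 0.925 and 1.1.

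Cd4 (ENSMUSG00000023274.14, chr6:124864692-124888221, minus strand) encodes the coreceptor of helper T cells, and the isolated cells were CD4+. It was at 509 and 740.3 CPM in Naive, 463 and 438 CPM in Th17, and 422 and 608 CPM in Th1. Both Th17 libraries lay below Naive, and Th1 overlapped both other cell types. The log2 fold changes were -0.47 (95% interval -1.18 to 0.23) for Th17 against Naive, -0.28 (95% interval -0.98 to 0.43) for Th1 against Naive and 0.19 (95% interval -0.51 to 0.9) for Th1 against Th17. The counts of Cd4 per count of Cd3e were between 2.22 and 2.3 in the Naive and Th17 libraries and were 1.65 and 1.82 in Th1, so on this ratio Th1 lay below both.

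Cd8a (ENSMUSG00000053977.13, chr6:71373427-71379173, plus strand) encodes the CD8 alpha chain of cytotoxic T cells. Only 15 and 3 counts were found in the Naive libraries, 90 and 4 counts in Th17, and 40 and 4 counts in Th1, which is 0.22 and 0.149 CPM, 1.38 and 0.226 CPM, and 0.619 and 0.253 CPM. Naive replicate 2 was at the limit of detection and Th17 replicate 1 was the highest. Th17 replicate 2 (0.226) and Th1 replicate 2 (0.253) were close to Naive replicate 1 (0.22), and per library total, without TMM, they were below it (0.225 and 0.218 against 0.231 CPM). The log2 fold change of Th17 against Naive was 2.13 (SE 0.91, 95% interval 0.1 to 4.17, edgeR adjusted p-value 0.13), and it was 0.24 without Th17 replicate 1. Cd8a made up 0.0433% (Wilson 95% interval 0.0262 to 0.0714) and 0.0201% (0.00682 to 0.059) of the summed Cd8a and Cd4 counts in Naive. The shares were 0.297% (0.242 to 0.365) and 0.0517% (0.0201 to 0.133) in Th17, and 0.146% (0.108 to 0.199) and 0.0415% (0.0162 to 0.107) in Th1. In both polarized cell types the deeper first replicate held the larger share, and its interval did not meet that of the second replicate. The intervals cover counting error only.

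Cd8b1, the partner chain of CD8, is no member but bears on this reading. It was at 8.59 and 11.2 CPM in Naive, 5.91 and 5.43 CPM in Th17, and 5.91 and 10.9 CPM in Th1, which is more than Cd8a in every library. Eomes, a factor of cytotoxic and memory cells, was at 18.3 and 25.3 CPM in Naive, 1.22 and 0.676 CPM in Th17, and 11.5 and 10.3 CPM in Th1, taken per library total without TMM. Both genes were lowest on average in Th17, where Cd8a had its highest library.

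Lck (ENSMUSG00000000409.14, chr4:129548344-129573641, minus strand) encodes the Src family kinase bound to CD4 and CD8. It was at 632 and 858 CPM in Naive, 552 and 673 CPM in Th17, and 724 and 934 CPM in Th1. Naive overlapped both other cell types, and both Th1 libraries lay above Th17. The log2 fold changes were -0.28 (95% interval -0.97 to 0.41), 0.15 (95% interval -0.54 to 0.84) and 0.44 (95% interval -0.25 to 1.13) for Th17 against Naive, Th1 against Naive and Th1 against Th17.

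Zap70 (ENSMUSG00000026117.10, chr1:36761798-36782818, plus strand) encodes the Syk family kinase that docks on the CD3 and zeta chains. It was at 303 and 399.6 CPM in Naive, 237 and 207 CPM in Th17, and 402 and 543 CPM in Th1. The 3 cell types did not overlap, with Th17 lowest and Th1 highest, though Naive replicate 2 and Th1 replicate 1 were almost level and, per library total without TMM, Naive and Th1 overlapped. Th1 against Th17 gave a log2 fold change of 1.09 (SE 0.3, 95% interval 0.43 to 1.75, edgeR adjusted p-value 0.035), which is a fold of 2.12 (95% interval 1.34 to 3.36). It did not pass at 0.01 but did so in DESeq2 (adjusted p-value 0.0042) and in edgeR with no filter on low counts (0.0079), and over all alternatives the adjusted p-value was between 0.0042 and 0.25. Th17 against Naive gave -0.66 (SE 0.29, edgeR adjusted p-value 0.15) and Th1 against Naive 0.43 (SE 0.29, edgeR adjusted p-value 0.38). Per count of Lck, Zap70 had 0.479 and 0.466 counts in Naive, 0.43 and 0.308 counts in Th17, and 0.555 and 0.581 counts in Th1, and this ratio also kept the 3 cell types apart.

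Lat (ENSMUSG00000030742.7, chr7:126363824-126369570, minus strand) encodes the scaffold that ZAP-70 phosphorylates. It was at 642 and 756 CPM in Naive, 613 and 546 CPM in Th17, and 505 and 559.8 CPM in Th1. Both polarized cell types lay below Naive and overlapped each other. The log2 fold changes were -0.27 (95% interval -0.89 to 0.35) for Th17 against Naive, -0.39 (95% interval -1.02 to 0.23) for Th1 against Naive and -0.12 (95% interval -0.75 to 0.5) for Th1 against Th17. Lat spanned the smallest range of the 9, with 1.5 times as much in its highest as in its lowest library, against 2.63 times for Cd3d and 2.62 times for Zap70.

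Counting over the members, 2 were higher and 5 lower in both Th17 libraries than in both Naive libraries, where 32.4% of all genes tested were higher and 33.1% lower in this sense. In Th1 against Naive, 4 were higher and 1 lower (27.6% and 28.4% of all genes), and in Th1 against Th17, 4 were higher and 0 lower (31.5% and 35.1%). Per library total, without TMM, the counts were 1 higher (Cd3d) and 5 lower in Th17 against Naive, where 32.1% and 33.1% of all genes were, and 1 higher (Cd3d) and 2 lower (Cd4 and Lat) in Th1 against Naive, where 18.7% and 40.8% were. In Th1 against Th17 they were 4 higher and 2 lower (Cd3d and Lat), where 20.9% and 44.6% of all genes were. Cd8a did not separate the cell types on that scale. With TMM it was among the members higher than Naive in both comparisons, but it had passed the low-count filter only through polarized libraries. The 3 comparisons share libraries, so these counts are not independent of each other. The replicates themselves differed. In Naive, 7 of 9 members were higher in replicate 2 than in replicate 1, in Th1 8 of 9 and in Th17 4 of 9, with ratios between replicates of 1.06 to 1.72 for the 8 members other than Cd8a. The share of all genes tested that were higher in replicate 2 was not computed, so these counts are not shown to be particular to the members.

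Likeness between members was measured as the root mean square difference of their log2 CPM, each centred on its own mean over the 6 libraries. The closest pair was Cd3e and Cd247 (0.095), followed by Cd247 and Lck (0.107). Cd8a was the farthest from all others, at 1.064 or more from each. Of the rest, Cd3d was nearest to its divergent neighbour Cd3g (0.359) and was 0.672 from Cd3e. Cd3g itself was nearer to Lck (0.197), Cd247 (0.283), Cd3e (0.327) and Cd4 (0.348) than to Cd3d. Among all genes tested, those with the profile most like a member were Map1lc3b, Chpt1 and Gas5 for Cd3d (0.088 to 0.094), Dnajc7, Rassf5 and Rmnd5a for Cd3e (0.039 to 0.05), Coro1a, Arl13b and Actr3 for Cd3g (0.067 to 0.081), and Cul3, Asah2 and C1galt1 for Cd247 (0.043 to 0.061). They were Epc2 and Pvr for Cd4 (0.05 to 0.066), Cd69, Elf1 and Atp11b for Lck (0.052 to 0.076), Ankrd50, Slc9a3r1 and Sppl3 for Zap70 (0.041 to 0.07), and Rbl2, Arnt and Alkbh4 for Lat (0.054 to 0.069). For Cd8a, whose counts were few, the nearest gene, Sema6b, was at 0.351. All of these values rest on 6 libraries that also share differences in depth.

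The members were also read as a measure of the T cell share of each library. In bulk samples, fewer T cells and less of these RNAs per cell cannot be told apart. The 9 members summed to 3615 and 4661 unscaled CPM (per library total, without TMM) in Naive, 3628 and 3969 unscaled CPM in Th17, and 3341 and 4144 unscaled CPM in Th1, or 0.334% to 0.466% of all counts. The 3 cell types overlapped on this sum. Without Cd3d, the sum was 3099 and 4179.5 in the Naive libraries, 2888 and 2804 in the Th17 libraries, and 2817 and 3412 in the Th1 libraries. Both Th17 libraries and Th1 replicate 1 were then below both Naive libraries. Since Cd3d was higher in Th17 than in Naive, leaving it out lowers Th17 relative to Naive by construction. A list of 8 other pan-T cell genes, among them Tcf7, Cd2, Cd5 and Thy1, summed to 3958 and 6374 unscaled CPM in Naive, 4395 and 3601 unscaled CPM in Th17, and 3610.3 and 4089.7 unscaled CPM in Th1. Tcf7 gave the largest part of this list in the Naive libraries (1389 and 2385) and in the Th17 libraries (1905 and 1331). Its Th1 values, 549.8 and 1064, lay below those of all Naive and Th17 libraries. The list, and the scaling to it, thus lean on a gene that itself differed between cell types. Naive replicate 2 was highest on both sums, but with TMM scaling the members summed to 4807 CPM in Th1 replicate 2 against 4295 CPM in Naive replicate 2.

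Within Naive, the library lower in T cell genes was higher in genes of other cells. The erythroid list of 9 genes summed to 734 unscaled CPM in replicate 1 and 136 in replicate 2, and to no more than 2.22 in any other library, led by Car1 at 486 and 93.1. The plasma cell list was at 109.9 and 31.7 unscaled CPM in these libraries, led by Igj, and at no more than 12.8 elsewhere. In Th17, the neutrophil list of 10 genes summed to 3283 and 2861 unscaled CPM, led by S100a8 at 1252 and 1138, against 60.3 to 327 in the other libraries. The monocyte and macrophage list was at 326 and 876 in Th17 and at 20.4 to 43.8 elsewhere, led by Lyz2, the mast cell and basophil list at 254 and 451 against 60.4 to 185, and the megakaryocyte and platelet list at 300.0 and 482 against 5.37 to 70.9. The part of these lists in the members' levels was not tested. Scaled to the pan-T cell genes in place of TMM, the median log2 fold change of all genes in Th17 against Naive moved by 0.26, and Lck (0.04) and Lat (0.02) changed sign there.

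NK cells, like T cells, express Cd247, Lck and Zap70. The list of 7 NK genes summed to between 2.02 and 74.2 unscaled CPM, with Klra4 and Klra8 at 0 in every library. Its value was highest in Th17, where Tyrobp, which myeloid cells also express, gave 36.8 and 66.7 of it. Klrb1c ran the other way, at 18.3 and 12.2 in Naive and 1.03 and 1.18 in Th17. Klri2 was at 0.524 and 0 in Naive and at 2.38 and 5.24 in Th17, and Ncr1 and Klre1 were at no more than 1.19 in any library. The list of 3 gamma delta T cell genes was between 5.69 and 25.9 unscaled CPM and the CD8 T cell list between 7.5 and 40.2. Of other cells, the B cell list was between 2.55 and 21.1 and the dendritic cell list between 81.3 and 146.

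**Figure D4:**
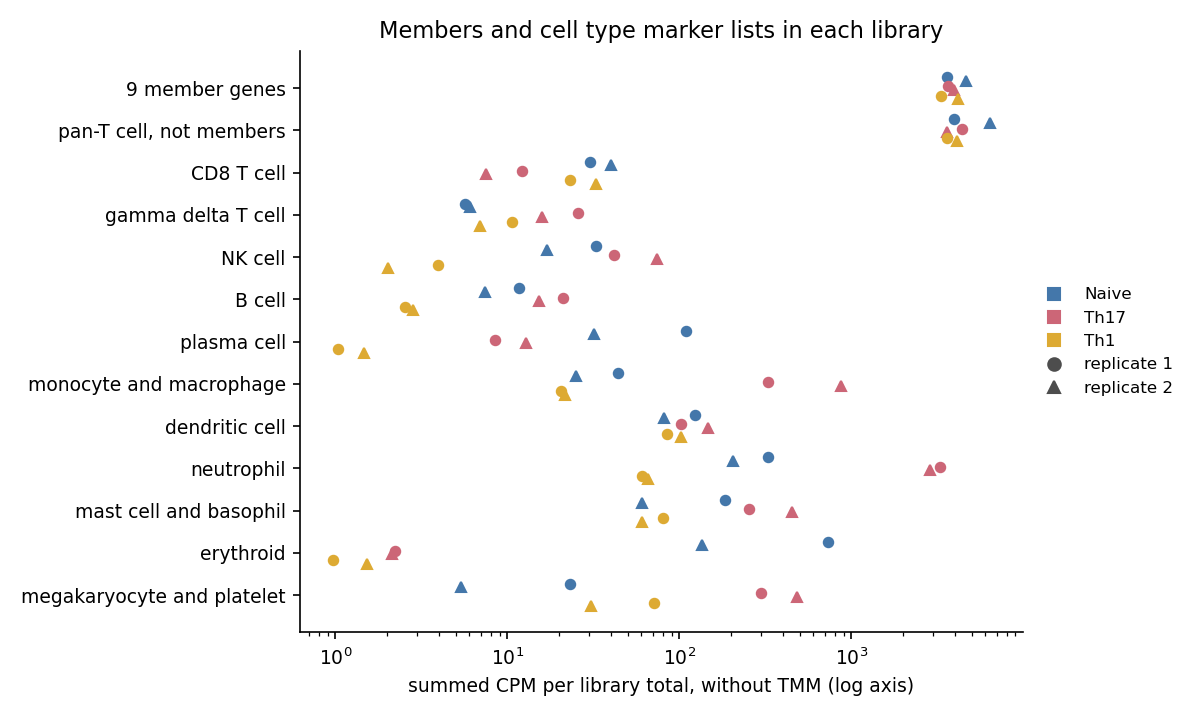
Summed CPM of each library, per library total without TMM (horizontal, log axis) for the 9 members and for lists of cell type markers, coloured by cell type, with circles for replicate 1 and triangles for replicate 2. The members lie between 3341 and 4661 in all 6 libraries, while the neutrophil list is at 3283 and 2861 in Th17 and at 60.3 to 327 elsewhere.

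Around the members, 59 further genes of the pathway were counted and tested. In Th17 against Naive, 0 were called higher (4.01% of all genes tested) and 5 lower (1.43%), in Th1 against Naive 0 higher (4.64%) and 3 lower (2.81%), and in Th1 against Th17 6 higher (2.7%) and 2 lower (2.83%). The median log2 fold changes of the 59 were -0.34, 0.13 and 0.44, and those of all genes were -0.02, -0.02 and -0.03. The counts changed when 1 library was left out. Such a fit leaves 1 library in a group, so lost power and a part of the single library cannot be told apart in these counts. Without Th17 replicate 1 or without Th17 replicate 2, 1 gene was called in Th17 against Naive and 1 in Th1 against Th17. Without Naive replicate 2 the counts were 1, 5 and 13 in the order of the comparisons above, without Th1 replicate 1 they were 3, 3 and 5, and without Th1 replicate 2 they were 3, 2 and 3. The calls of Tox in both comparisons with Naive, of Tespa1 in Th1 against Naive and of Gata3 in Th1 against Th17 passed in every alternative run.

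Among receptor assembly genes, Trat1, an adaptor that binds and stabilizes the receptor complex and also stands in the adaptor list, was at 45.9 and 65.1 CPM in Naive, 12.5 and 15.2 CPM in Th17, and 15.5 and 26 CPM in Th1. It was lower in Th17 than in Naive by a log2 fold change of -2.0 (SE 0.35, edgeR adjusted p-value 0.0052). Th1 against Naive gave -1.42, which did not pass (adjusted p-value 0.02).

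Of 5 genes that pair with or set the coreceptors, 2 were called in Th17 against Naive. Tox, a nuclear factor of CD4 lineage development in the thymus, was at 41.6 and 65.1 CPM in Naive, 2.91 and 3.17 CPM in Th17, and 3.08 and 4.99 CPM in Th1. It was lower than in Naive by log2 fold changes of -4.14 (SE 0.4, edgeR adjusted p-value 0.00025) in Th17 and -3.75 (SE 0.4, edgeR adjusted p-value 0.00032) in Th1. Gata3, which acts in CD4 lineage choice and in Th2 cells, was at 57.5 and 82.4 CPM in Naive, 18.4 and 8.54 CPM in Th17, and 117 and 241 CPM in Th1. The 3 cell types did not overlap, and the log2 fold change was -2.36 (edgeR adjusted p-value 0.008) for Th17 against Naive and 3.71 (SE 0.47, edgeR adjusted p-value 0.0011) for Th1 against Th17.

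Of 6 other Src, Syk and Tec family kinases, 2 were called, both in Th1 against Th17. Fyn, the Src kinase that acts beside Lck, was at 423 and 579 CPM in Naive, 236 and 197 CPM in Th17, and 734 and 1029 CPM in Th1, with a log2 fold change of 2.02 (SE 0.32, edgeR adjusted p-value 0.0034). Tec ran the other way, at 14.5 and 16.7 CPM in Naive, 32.5 and 35.2 CPM in Th17, and 7.04 and 11.4 CPM in Th1, with a log2 fold change of -1.88 (SE 0.34, edgeR adjusted p-value 0.0062). For both kinases the 3 cell types did not overlap. For comparison, the corresponding Th1 against Th17 values of Lck and Zap70 were 0.44 and 1.09.

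Of 16 adaptors that gather on or near LAT, 2 more were called. Tespa1, which links the receptor to calcium release, was at 35.8 and 59.3 CPM in Naive, 14.8 and 21.8 CPM in Th17, and 8.42 and 6.32 CPM in Th1, and was lower in Th1 than in Naive by -2.68 (SE 0.38, edgeR adjusted p-value 0.0014) on the log2 scale. Sit1, a transmembrane adaptor that dampens receptor signals, was at 85.9 and 94.7 CPM in Naive, 85.4 ± 20.7 (SD, n = 2) CPM in Th17, and 25.1 and 30.5 CPM in Th1. Both Th1 libraries lay far below the other 4, with log2 fold changes of -1.70 against Naive (SE 0.28, edgeR adjusted p-value 0.0032) and -1.62 against Th17 (SE 0.28, edgeR adjusted p-value 0.005).

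Of 14 downstream enzymes, channels and factors, Itpkb and Nfatc1 were lower in Th17 than in Naive, and Ppp3ca and Nfatc1 were higher in Th1 than in Th17. Itpkb, an inositol trisphosphate kinase, was at 244 and 382 CPM in Naive, 119 and 76 CPM in Th17, and 173 and 195 CPM in Th1 (log2 fold change -1.68, edgeR adjusted p-value 0.0095). Nfatc1, a factor activated by calcineurin, was at 138 and 225 CPM in Naive, 68.5 and 45.5 CPM in Th17, and 178 and 211 CPM in Th1, with log2 fold changes of -1.67 for Th17 against Naive (edgeR adjusted p-value 0.0098) and 1.77 for Th1 against Th17 (0.0075). Ppp3ca, the catalytic subunit of calcineurin, was at 101 and 99.3 CPM in Naive, 46.3 and 43.8 CPM in Th17, and 118 and 224 CPM in Th1, with a log2 fold change of 1.92 for Th1 against Th17 (SE 0.33, edgeR adjusted p-value 0.0046).

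Of 18 phosphatases, ubiquitin ligases and other inhibitors of receptor signalling, 2 were called, both higher in Th1 than in Th17. Cblb, a ubiquitin ligase that restrains activation, was at 95.3 and 145 CPM in Naive, 57.4 and 45.8 CPM in Th17, and 207 and 238 CPM in Th1, with a log2 fold change of 2.11 (SE 0.3, edgeR adjusted p-value 0.002). Ubash3a, which acts against ZAP-70 signalling, was at 94.8 and 107 CPM in Naive, 74.9 and 79.5 CPM in Th17, and 169 and 249 CPM in Th1, with a log2 fold change of 1.44 (SE 0.28, edgeR adjusted p-value 0.0088). For both genes Th1 lay above Naive and Naive above Th17, with no overlap.

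**Figure D5:**
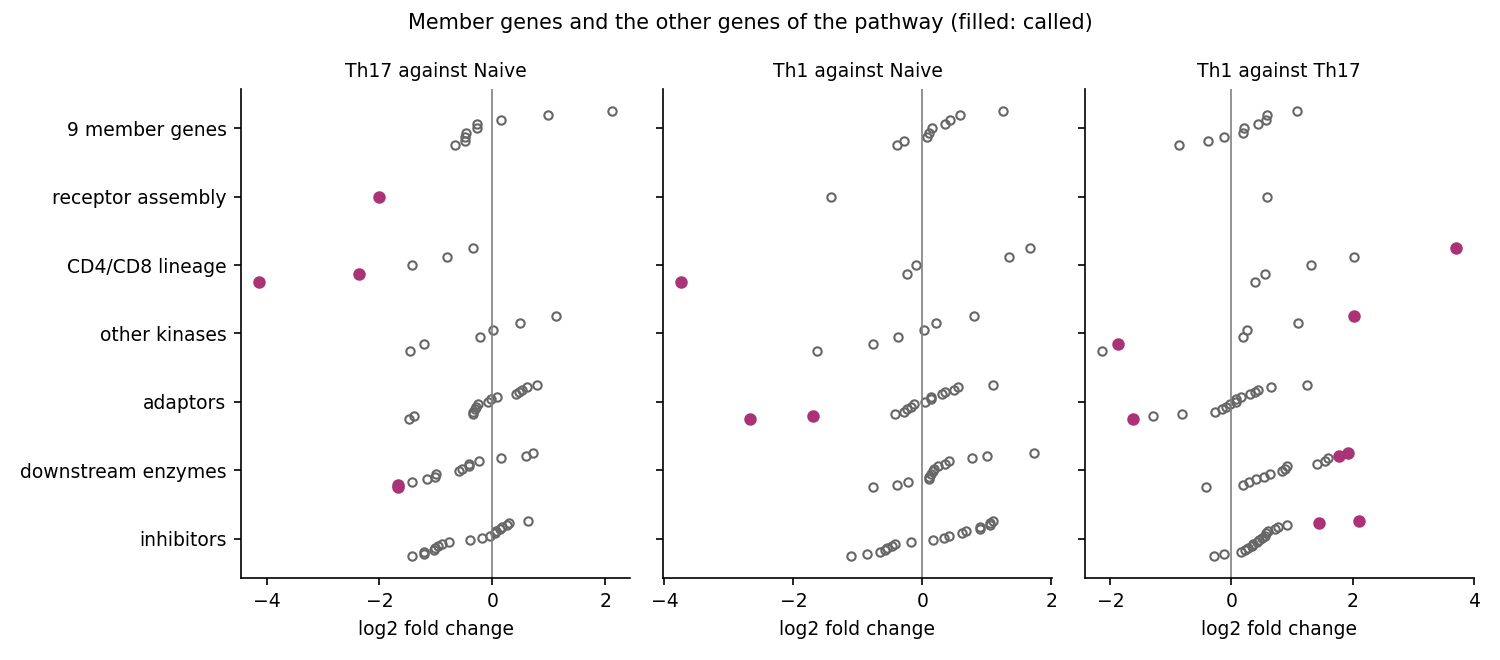
Log2 fold change (horizontal axis) of the 9 members and of 59 other genes of the pathway in 6 lists, in the 3 comparisons, with filled points for called genes and Trat1 drawn under receptor assembly only. The members hold no filled point, and the 6 genes called higher in Th1 than in Th17 span 1.44 to 3.71.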

How the data were processed

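Raw read counts per gene, one deposited set for each of 6 mouse RNA-Seq libraries, were used as the authors deposited them. Per the paper's methods, HISAT2 (2.2.1) mapped the reads to mm10 and, after removal of duplicates, HTSeq (0.13.5) counted them. Whether the counting used strand, and which of the library protocols described was used, was not settled by the sources used here. Of 24223 genes, 6377 had no count in any library.

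The model was fitted with edgeR (4.0.16) under R (4.3.3). Genes were filtered by filterByExpr (13607 kept), scaled by TMM, and fitted by glmQLFit with cell type as the only term over all 6 libraries, which left 3 residual degrees of freedom. The glmQLFTest p-values were adjusted by Benjamini-Hochberg over all genes tested. DESeq2 (1.42.0), other scalings and filters, a replicate block and leaving out each library were tried as alternatives. The fit was tested on simulated data for Th17 against Naive. It called 99 of 100 genes with a true log2 fold change of 3 in size and 41 of 100 with 1.5. A gene that was not called may therefore still differ by the smaller size. The changed genes were drawn only from genes with a mean CPM well above that of Cd8a, so these rates do not cover Cd8a. Gene positions came from GENCODE annotation and promoters from RefSeq, both of GRCm38, the assembly of mm10.

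Members and gene lists were chosen with earlier results of these data known. Named were all members, up to 4 called genes of each pathway list by size of change with more than 3 counts in every library, the 3 genes most like each member, and the leading genes of marker lists. Some genes that meet these rules are left out and not reported here. Label markers, ratios within libraries and overlaps per library total were added after their values were seen. ATAC-Seq and Hi-C data were not analysed here. Depth was between 17742158 and 69080017 counts. The edgeR p-values rest on the spread between the 2 libraries of each group, pooled over all 6 libraries and moderated across genes.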

Additional observations from a re-analysis of the deposited data

Results flagged for a closer look

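For 7 genes of the pathway, the Th1 and Th17 libraries lay on opposite sides of Naive in their fitted log2 fold changes, and the direct comparison of Th1 with Th17 passed the edgeR test. The Th1 against Th17 log2 fold changes were 3.71 for Gata3, 2.02 for Fyn, 1.92 for Ppp3ca, 1.77 for Nfatc1, 2.11 for Cblb, 1.44 for Ubash3a and -1.88 for Tec. Against Naive, Gata3 gave -2.36 in Th17 and 1.35 in Th1, Fyn -1.21 and 0.81, Ppp3ca -1.15 and 0.77, Cblb -1.22 and 0.89, Ubash3a -0.39 and 1.05, and Tec 1.12 and -0.76. Nfatc1 gave -1.67 and 0.10, and its libraries in Naive and Th1 overlapped. Of these values against Naive, only those of Gata3 and Nfatc1 in Th17 were called. The share of all genes tested with this pattern was not computed, and choosing genes by a called difference between Th1 and Th17 favours opposite signs. Zap70, with -0.66 and 0.43 against Naive, had the same pattern but passed in Th1 against Th17 (1.09) only with DESeq2 (adjusted p-value 0.0042), with edgeR with no filter on low counts (0.0079), or at an adjusted p-value under 0.05 (0.035).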

How the results depend on the processing

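The count of members called stayed at 0 in either direction under every alternative in both comparisons with Naive. In Th1 against Th17 it was 1 (Zap70) with DESeq2, with no filter on low counts, and at an adjusted p-value under 0.05 with or without the fold threshold. The counts of other pathway genes called (5 for Th17 against Naive, 3 for Th1 against Naive, 8 for Th1 against Th17) moved more. They were 15, 13 and 16 with DESeq2, 16, 13 and 17 with no filter, and 17, 13 and 17 at an adjusted p-value under 0.05 (18, 13 and 17 with no fold threshold). Th17 against Naive and Th1 against Th17 gave 2 and 5 by library size alone and 1 and 3 when scaled to pan-T cell genes, and Th17 against Naive gave 2 with at least 10 counts required in every library, which left out Cd8a. Without 1 library the counts were 1 to 6, 2 to 5 and 1 to 13. The cause was not tested.

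The alternatives at an adjusted p-value under 0.05, with or without the fold threshold, kept the main log2 fold change. They are counted below but could not change sign. Of 435 values of the members under an alternative, 21 changed sign, in 11 of 27 fold changes, none of which was called. Of 588 values of the named pathway genes, 34 were newly called, 64 were no longer called and 5 changed sign. By library size alone, which moved the median of all genes by -0.24 in Th1 against Naive and -0.21 in Th1 against Th17, these were Cd3e (-0.18), Cd247 (-0.16) and Lck (-0.11) in the former and Cd3g (-0.01) and Cd4 (-0.03) in the latter, beside Nfatc1 (-0.16) in the former. Scaled to pan-T cell genes, which moved the 3 medians by 0.26, 0.11 and -0.15, Lck (0.04), Lat (0.02) and Sit1 (0.22) turned in Th17 against Naive. Without 1 library, the Th17 against Naive values ran from -0.12 to 0.4 for Cd3g and from -0.35 to 0.16 for Sit1. Those of Th1 against Naive ran from -0.18 to 0.38 for Cd3e, -0.17 to 0.38 for Cd247, -0.56 to 0.02 for Cd4, -0.05 to 0.39 for Lck and -0.21 to 0.5 for Nfatc1, and those of Th1 against Th17 from -0.74 to 0.06 for Cd3d, -0.04 to 0.48 for Cd3g, -0.08 to 0.43 for Cd4 and -1.73 to 1.01 for Cd8a.

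Whether equal replicate numbers pair the samples is not settled by the sources used here. The correlations over genes of the replicate differences were -0.231 for Naive and Th17, 0.168 for Naive and Th1, and 0.0766 for Th17 and Th1. They cannot decide it, since replicate number also went with depth. With the number as a replicate block, 5, 5 and 11 pathway genes and 0 members were called. A crossed block for Naive and Th17, chosen after seeing the data, called 14 pathway genes and 0 members.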
